A study of Homo sapiens with 4 samples.

Results

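Mitochondrial carriers of the SLC25 family were examined in U87 MG cells, a widely used human glioblastoma cell line, after an siRNA against PELP1 and after a control siRNA. The carriers were taken as every symbol in the deposited gene lists that consists of SLC25A and a number, which gave 45 of 23228 symbols. Of these 45 carriers, 37 had enough reads for the test, out of 13234 genes tested in all.

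Carriers of this family are proteins built from repeated membrane-spanning modules that sit mostly in the inner mitochondrial membrane and let a particular metabolite in, usually in exchange for another on its way out. They join the pathways of the cytosol to those of the matrix: ADP enters and ATP leaves, citrate leaves for lipid synthesis, aspartate and malate carry reducing equivalents, and iron, glycine and cofactors enter for heme and enzyme synthesis. Carriers are made in the cytosol and reach the inner membrane through the TOM pore and the TIMM22 insertase.

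The PELP1 siRNA group held 2 libraries from U87 cells transfected with siRNA against PELP1, a scaffold protein of nuclear receptor and ribosome assembly complexes, and the control siRNA group held 2 libraries from U87 cells given a control siRNA. Both groups were grown in DMEM with 10% FBS, received their siRNA in oligofectamine and were harvested 72 h later, so the transfection itself is common to both. The labels call the libraries duplicates and do not say whether they came from separate cultures, so the p-values measure the spread between these 4 libraries, which may be technical.

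PELP1 itself had 15.2 and 17.7 CPM (gene counts scaled to a common library size) in the PELP1 siRNA libraries, against 74.0 and 78.1 CPM in the control siRNA libraries. On the log2 scale it fell by 2.21 (SE 0.097, adjusted p = 8.32e-14), and the groups did not overlap. Every adjusted p here comes from edgeR's quasi-likelihood test with Benjamini-Hochberg adjustment over the 13234 genes, and a gene was called at an adjusted p under 0.05. CPM are scaled between libraries by TMM, which sets the typical gene to no change.

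The libraries held 18670162 to 22858988 counts over genes. As markers of the mesenchymal U87 state, VIM, CD44, FN1 and TNC stood at 1956 to 7140 CPM, CHI3L1 at 184 to 205 CPM and NES at 31.1 to 50.1 CPM, and CDKN2A and CDKN2B, which this line lacks, had 0 counts in every library. Of these 6 mesenchymal markers 4 were called lower with PELP1 siRNA (VIM at -0.28, CD44 at -0.32, FN1 at -0.48 and NES at -0.51 on the log2 scale). Over all genes tested, 15.0% were called lower and 12.9% higher. The mesenchymal list summed to 13035 and 13536 CPM with PELP1 siRNA, against 15806 and 15744 CPM with control siRNA. The astrocyte markers AQP4 and ALDH1L1 were at 0 and GFAP was at 1.22 to 1.84 CPM, while SLC1A3 had 70.5 and 66.0 CPM with PELP1 siRNA, against 47.0 and 50.4 CPM with control siRNA, and was called higher (log2 fold change 0.49, adjusted p = 9.58e-05). Of 18 markers of neurons, oligodendrocytes, immune, endothelial, epithelial and melanocyte cells, MOG, AIF1 and TYR were at 0 and the whole list summed to 441 and 479.6 CPM with PELP1 siRNA, against 487 and 498 CPM with control siRNA, of which the lysosomal gene CD68 made up 385 to 427 CPM. In that list 10 genes were tested, and 1 was called higher (EPCAM, at 1.68 and 1.53 CPM with PELP1 siRNA, against 0.671 and 0.893 CPM with control siRNA) and 1 lower (SNAP25). That is 20% called, against 27.9% of all genes tested. The part of these marker differences in the results below was not tested.

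The summed level of the 45 carriers was 2129 and 2194 CPM with PELP1 siRNA, against 2018 and 2050 CPM with control siRNA. Without TMM scaling, the carriers held 0.216% and 0.223% of all gene counts in the PELP1 siRNA libraries, and 0.199% and 0.201% in the control siRNA libraries. On both scales the carriers were higher in both PELP1 siRNA libraries, by a small margin that depended on the scaling. Neither difference was tested. In bulk RNA, a smaller share of cells that express a carrier and less of its RNA per cell cannot be told apart.

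Per kilobase of transcript, SLC25A5, the ADP/ATP carrier of dividing cells, was the highest of the 45 carriers, at 276 CPM per kb with PELP1 siRNA and 245 CPM per kb with control siRNA. SLC25A39, an importer of glutathione, followed at 69.7 CPM per kb with PELP1 siRNA and 75.9 CPM per kb with control siRNA. SLC25A3, which brings in the phosphate that ATP synthesis uses, stood at 55.6 CPM per kb with PELP1 siRNA and 54.0 CPM per kb with control siRNA, over a reference transcript of 5984 bases. Next came SLC25A11, SLC25A1 and SLC25A13, each between 32.5 and 53.5 CPM per kb. This order depends on the reference transcript, which has 1307 bases for SLC25A5. Before division by length, SLC25A5 and SLC25A3 had means of 360 and 333 CPM with PELP1 siRNA. With control siRNA they had 321 and 323 CPM. SLC25A27, an uncoupling-protein relative best known from neurons, was the lowest of the tested carriers, at 0.353 CPM per kb with PELP1 siRNA and 0.358 CPM per kb with control siRNA.

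**Figure D1:**
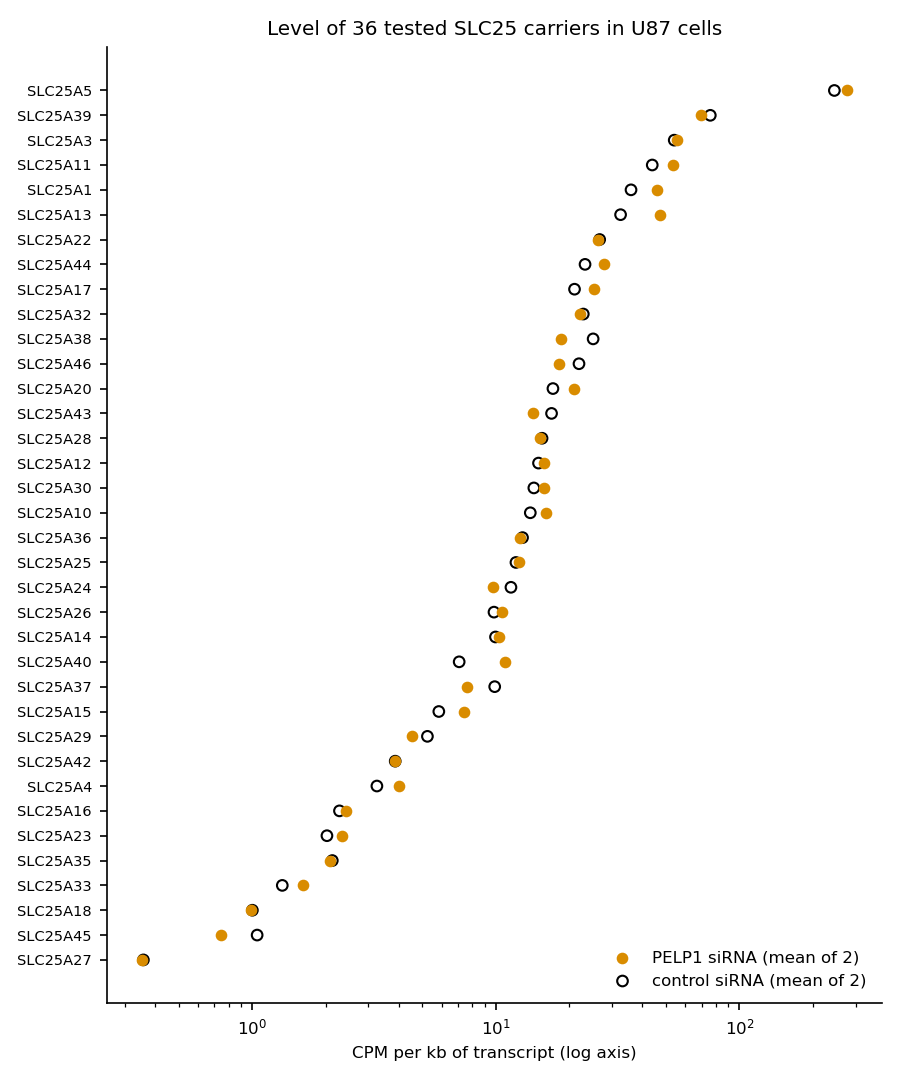
Level of 36 of the 37 tested carriers in CPM per kb of transcript on a log axis, with carriers down the page. Filled points are the mean of the 2 PELP1 siRNA libraries and open points the mean of the 2 control siRNA libraries; SLC25A5 stands apart at 276 CPM per kb with PELP1 siRNA and 245 CPM per kb with control siRNA, and for most carriers the points lie close together.

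Of the 37 tested carriers, 8 were higher with PELP1 siRNA (21.6%), 4 were lower (10.8%) and 25 were not called. Among all genes tested, 12.9% were higher and 15.0% lower, 27.9% in either direction. The carriers called came to 32.4%, a share near that background. Their median log2 fold change was 0.04, against 0.001 over all genes tested, and single carriers ran from -0.49 to 0.63. The libraries of the groups did not overlap for 26 of the 37 carriers, which is 70.3%, against 64.2% of all genes tested.

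These counts depended on which libraries were fitted. Calls over all genes fell without either control siRNA library and rose without either PELP1 siRNA library. Without control siRNA library 1 the test called 2 carriers higher and 0 lower, and without control siRNA library 2 it called 2 higher and 1 lower. In such a fit the lone control library is assumed to vary like the PELP1 siRNA pair, which was the more variable pair (chi-square per gene 7.06 with PELP1 siRNA, 2.09 with control siRNA). The carriers called in every one of 13 alternative settings were SLC25A13 and SLC25A40. When libraries were scaled by their total counts instead of TMM, 11 carriers were higher and 3 lower, and over all genes 2272 were higher and 1597 lower, in place of 1712 and 1980. The 12 called carriers kept their direction in all 13 settings.

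**Figure D2:**
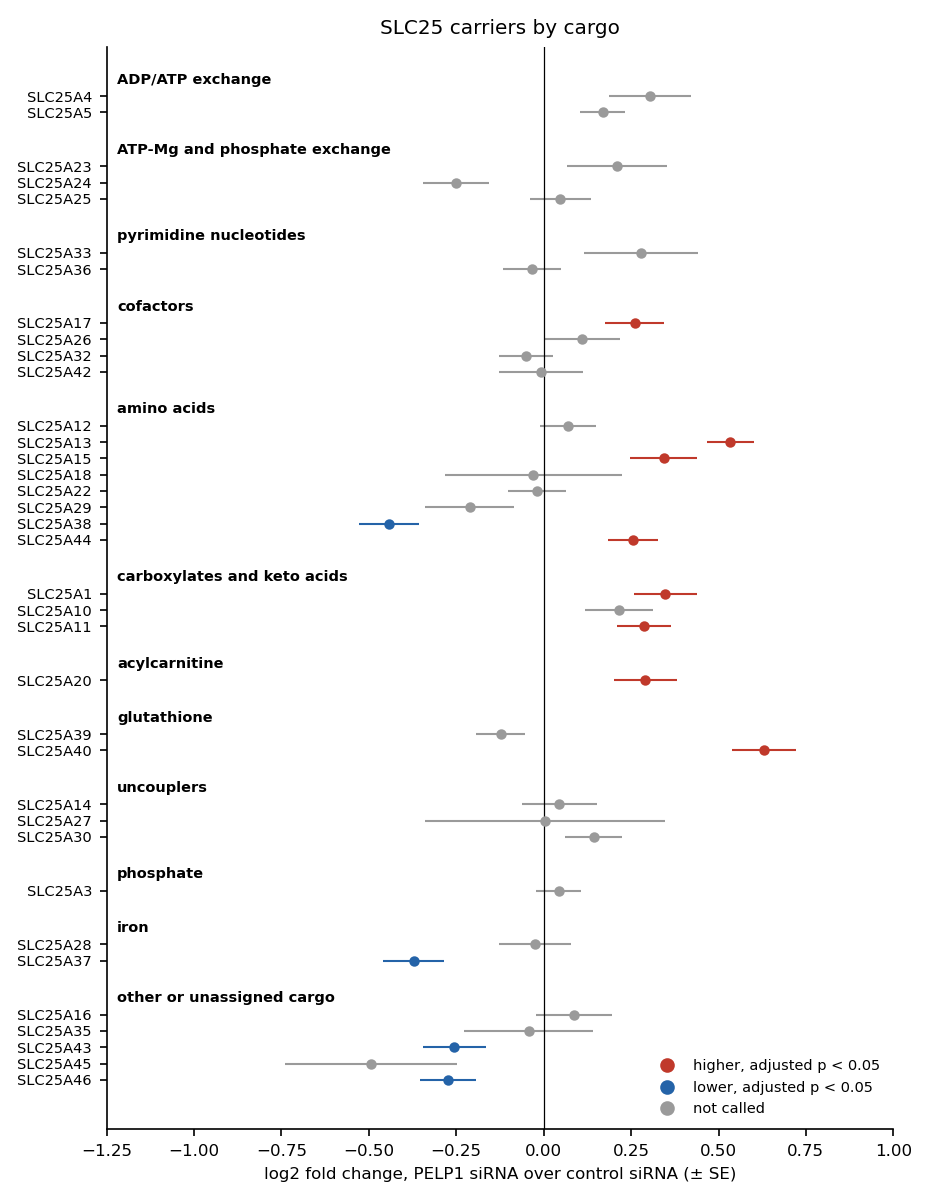
Log2 fold change (PELP1 siRNA over control siRNA, points, with bars of 1 SE) of 36 of the 37 tested carriers, grouped down the page by cargo. Red marks the 8 carriers called higher, blue the 4 called lower and grey the 24 shown that were not called; SLC25A40 (0.63) and SLC25A13 (0.53) lie farthest to the right.

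SLC25A13 and SLC25A40 showed the largest rises of the family. SLC25A13, known as citrin, exports aspartate from the matrix in exchange for glutamate and is the step of the malate-aspartate shuttle that the membrane potential drives. SLC25A40 is a relative of SLC25A39, and both serve the import of glutathione, the main thiol antioxidant of the matrix. Both genes lie on the minus strand of chromosome 7 (GRCh37, GENCODE): SLC25A13 at chr7:95749532-95951459 and SLC25A40 at chr7:87462883-87505675. Spans given beside other carriers are whole genes in the same build.

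The starts of these genes are shown because they belong to the carriers that were called in every setting. Each sequence runs 5′ to 3′ on the minus strand, from 250 bases before to 50 bases after the RefSeq start (GRCh38.p14), at chr7:96322049-96322348 for SLC25A13 and chr7:87876311-87876610 for SLC25A40. Capitals mark matches to the motifs searched on both strands: CCAAT, the GC box GGGCGG, the NRF1 motif TGCGCA, the ETS factor motif ACTTCCG, the E box CACGTG, TTGCATCA (ATF4 with a C/EBP factor) and TCACNCCAC (the sterol regulatory element).
SLC25A13: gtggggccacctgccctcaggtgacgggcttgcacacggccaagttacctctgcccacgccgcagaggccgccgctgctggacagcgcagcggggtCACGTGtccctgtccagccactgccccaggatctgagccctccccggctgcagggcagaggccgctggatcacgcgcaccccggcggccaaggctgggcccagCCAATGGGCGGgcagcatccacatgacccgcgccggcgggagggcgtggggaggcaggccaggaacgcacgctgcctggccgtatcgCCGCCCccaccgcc
SLC25A40: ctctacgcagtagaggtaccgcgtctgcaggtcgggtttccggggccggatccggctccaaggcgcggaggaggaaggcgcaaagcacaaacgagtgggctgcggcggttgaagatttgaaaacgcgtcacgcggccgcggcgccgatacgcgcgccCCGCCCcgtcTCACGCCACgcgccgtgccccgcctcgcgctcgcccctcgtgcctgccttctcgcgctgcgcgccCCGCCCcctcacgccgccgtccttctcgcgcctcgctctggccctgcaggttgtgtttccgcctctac
In SLC25A13 the capitals are a CACGTG at positions 97 to 102, a CCAAT at 200 to 204 joined to a GGGCGG at 205 to 210, and a CCGCCC, the GC box on the other strand, at 287 to 292. In SLC25A40 they are CCGCCC at 158 to 163 and 233 to 238, and TCACGCCAC at 168 to 176. Positions count from the first base shown.

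A promoter of this kind was found in RefSeq for 37 of the 45 carriers and for 27305 genes in all. These carriers are not the same as those tested, and include SLC25A6 and SLC25A31. The 27305 genes were not limited to genes tested here. A gene with several starts counted if any of its windows held the word. GGGCGG was present in 27 carrier promoters (73.0%) and in 48.3% of all promoters. CCAAT was present in 20 (54.1%, against 39.7% of all), CACGTG in 8 (21.6%, against 8.77%), ACTTCCG in 7 (18.9%, against 8.18%) and TGCGCA in 4 (10.8%, against 9.76%). TCACNCCAC was present in 1, that of SLC25A40 (2.70%, against 1.39% of all), and TTGCATCA in 0, against 1.08% of all. These are matches of letters in a window of 300 bases and were not tied to the fold changes.

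Among the amino acid carriers, 3 of 8 tested were higher with PELP1 siRNA (SLC25A13, SLC25A15, SLC25A44), 1 was lower (SLC25A38) and 4 were not called. Over all genes tested, 12.9% were higher and 15.0% lower. Counts by cargo, here and below, rest on few carriers each and are descriptions with no test. SLC25A13 had 150.1 and 146 CPM in the PELP1 siRNA libraries, against 102 and 102 CPM in the control siRNA libraries. Both PELP1 siRNA libraries stood well above the control libraries, and the log2 fold change was 0.53 (SE 0.068, adjusted p = 2.62e-06). The counts behind it were 2956 and 2765 with PELP1 siRNA, against 1977 and 2292 with control siRNA. Over the alternative settings the log2 fold change ranged from 0.52 to 0.58 and the adjusted p did not exceed 0.000832.

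SLC25A12, the other aspartate-glutamate carrier and the form known from brain and muscle, was not called. It had 63.9 and 59.8 CPM with PELP1 siRNA, against 57.8 and 60.1 CPM with control siRNA (log2 fold change 0.07, adjusted p = 0.557), and the groups overlapped. SLC25A13 therefore made up 70.1% and 70.9% of the summed CPM of the pair with PELP1 siRNA, against 63.8% and 63.0% with control siRNA. The shares of the groups did not overlap, and with 2 libraries against 2 an exact permutation test cannot give a two-sided p below 0.333.

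SLC25A15 (chr13:41363548-41386596) exchanges ornithine for citrulline and serves the urea cycle and polyamine supply. It stood at 28.4 and 28.1 CPM with PELP1 siRNA, against 22.9 and 21.7 CPM with control siRNA, without overlap (log2 fold change 0.34, SE 0.096, adjusted p = 0.00932). GENCODE names 5 pseudogenes after it, so some of its reads may have been left out as multiply aligned. SLC25A44 (chr1:156163723-156182587), which takes up branched-chain amino acids, had 94.8 and 97.6 CPM with PELP1 siRNA, against 79.7 and 81.5 CPM with control siRNA. Each group was tight and the groups were apart, at a log2 fold change of 0.26 (SE 0.072, adjusted p = 0.0104).

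SLC25A38 (chr3:39424861-39438842), the glycine importer that feeds the first step of heme synthesis, showed the largest fall of the called carriers. Its level was 38.5 and 39.1 CPM in the PELP1 siRNA libraries, against 54.6 and 50.8 CPM in the control siRNA libraries. The log2 fold change was -0.44 (SE 0.086, adjusted p = 0.000442), and the groups did not overlap. Without control siRNA library 1 its adjusted p was 0.0629 and without control siRNA library 2 it was still called. Of the other amino acid carriers, the glutamate carriers SLC25A22 (64.1 and 74.9 CPM with PELP1 siRNA, against 72.3 and 68.6 CPM with control siRNA) and SLC25A18 (about 2 CPM) overlapped between groups. SLC25A29, which carries basic amino acids, was at 9.65 and 11.1 CPM with PELP1 siRNA, against 12.5 and 11.5 CPM with control siRNA, and was not called (adjusted p = 0.227).

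Of the carriers of carboxylates and keto acids, 2 of 3 tested were higher (12.9% of all genes), the citrate carrier SLC25A1 and the oxoglutarate carrier SLC25A11. SLC25A1 (chr22:19163094-19166252) exports citrate, from which cytosolic acetyl-CoA for fatty acids and sterols is made. It had 63.8 and 77.8 CPM with PELP1 siRNA, against 55.6 and 55.6 CPM with control siRNA. The PELP1 siRNA libraries differed from each other more than they differed, at the nearest, from the controls, and the log2 fold change was 0.35 (SE 0.089, adjusted p = 0.00479). GENCODE names 5 pseudogenes after SLC25A1.

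SLC25A11 (chr17:4840425-4843348) exchanges oxoglutarate for malate and is the malate entry of the malate-aspartate shuttle. It had 85.6 and 95.4 CPM with PELP1 siRNA, against 75.1 and 73.4 CPM with control siRNA, without overlap (log2 fold change 0.29, SE 0.077, adjusted p = 0.00695). Its gene starts 45 bases from that of RNF167 on the other strand, which was at 128 and 144 CPM with PELP1 siRNA, against 119 and 124 CPM with control siRNA, and was not called (log2 fold change 0.16, adjusted p = 0.107). SLC25A10, the dicarboxylate carrier for malate and succinate, was at 29.7 and 32.7 CPM with PELP1 siRNA, against 28.0 and 25.8 CPM with control siRNA. Its groups did not overlap and it was not called (log2 fold change 0.22, adjusted p = 0.100).

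SLC25A20 (chr3:48894359-48936337) brings acylcarnitines into the matrix for beta oxidation in exchange for free carnitine. It had 36.8 and 37.8 CPM with PELP1 siRNA, against 30.8 and 30.2 CPM with control siRNA. The groups were apart, with a log2 fold change of 0.29 (SE 0.090, adjusted p = 0.0178), and with DESeq2's Wald test the adjusted p was 0.0568.

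Of the glutathione carriers, SLC25A40 rose and SLC25A39 was not called. SLC25A40 had 45.8 and 43.0 CPM with PELP1 siRNA, against 27.6 and 29.7 CPM with control siRNA. The counts were 903 and 816 with PELP1 siRNA, against 536 and 666 with control siRNA. Both PELP1 siRNA libraries lay far above the controls, and the log2 fold change of 0.63 (SE 0.091, adjusted p = 1.45e-05) was the largest of the family. The adjusted p did not exceed 0.00331 in any alternative setting. SLC25A39 had 105 and 115 CPM with PELP1 siRNA, against 121 and 119 CPM with control siRNA, and was not called (log2 fold change -0.12, adjusted p = 0.206). The share of SLC25A40 in the summed CPM of the pair was 30.3% and 27.2% with PELP1 siRNA, against 18.6% and 20.0% with control siRNA. Those shares did not overlap.

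SLC25A40 starts 144 bases from DBF4, which lies on the other strand and encodes the activator of the replication kinase CDC7. DBF4 had 51.9 and 48.1 CPM with PELP1 siRNA, against 36.9 and 40.4 CPM with control siRNA, and was called higher too (log2 fold change 0.37, SE 0.089, adjusted p = 0.00304). The exons of these genes share 145 bases, 2.85% of the exon bases of SLC25A40, and the strand setting of the authors' counting is not given in the sources used here. The part of that overlap in the SLC25A40 value was not tested.

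Of 5 tested cofactor carriers, 1 was higher and 0 were lower (12.9% and 15.0% of all genes). Again 0 were lower at an unadjusted p under 0.05, by DESeq2 or by limma-voom. The higher gene was SLC25A17 (chr22:41165634-41215403), which works in the peroxisomal membrane and carries CoA, FAD and other nucleotide cofactors. It had 55.7 and 56.5 CPM with PELP1 siRNA, against 44.3 and 49.4 CPM with control siRNA (log2 fold change 0.26, SE 0.085, adjusted p = 0.0248). Its groups did not overlap, the control libraries being the wider pair, and with DESeq2's Wald test the adjusted p was 0.0590. The carriers of S-adenosylmethionine (SLC25A26), folate (SLC25A32) and CoA (SLC25A42) had log2 fold changes of -0.05 to 0.11, and none of these was called. SLC25A26 shares 12.2% of its exon bases with LRIG1 on the other strand, and SLC25A32 shares 11.1% with DCAF13 on the other strand, so reads there may have been left out or counted for either gene.

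Of 7 tested nucleotide carriers, 0 were called by edgeR in either direction. At an unadjusted p under 0.05, 2 were higher and 1 was lower, DESeq2 called 0, and limma-voom called 0 higher and 1 lower. SLC25A5 had 349.6 and 371 CPM with PELP1 siRNA, against 312 and 329 CPM with control siRNA, without overlap, and just missed the threshold (log2 fold change 0.17, SE 0.063, adjusted p = 0.0505). It passed under scaling by DESeq2 size factors (adjusted p = 0.0460), by the upper quartile (0.0375) and by total counts (0.0142). SLC25A4, the ADP/ATP carrier of heart and muscle, had 15.9 and 19.6 CPM with PELP1 siRNA, against 13.9 and 14.8 CPM with control siRNA (log2 fold change 0.30, adjusted p = 0.0580), and it passed under total count scaling (0.0341) and without the filter on low counts (0.0469). SLC25A5 made up 95.7% and 95.0% of the summed CPM of these carriers with PELP1 siRNA, against 95.7% and 95.7% with control siRNA.

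GENCODE names 9 pseudogenes after SLC25A5, and reads that align equally well to several of these places may have been left out of the counts. The remaining ADP/ATP carriers gave no signal: SLC25A31, the form of the testis, had 0 counts in every library. SLC25A6 also had 0 counts in every library, and it lies in the pseudoautosomal region that the X and Y chromosomes share, where 13 of 15 protein-coding genes had 0 counts throughout. No level of SLC25A6 is read from its zeros here.

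The calcium-regulated ATP-Mg and phosphate exchangers balance the adenine nucleotide pool of the matrix. SLC25A24 was at 45.1 and 37.3 CPM with PELP1 siRNA, against 47.3 and 50.7 CPM with control siRNA (log2 fold change -0.25, adjusted p = 0.0509). The groups did not overlap, and it was called lower without the filter on low counts (0.0181), with a stricter filter (0.0451), by limma-voom (0.0486) and with the replicate number as a block (0.0405). On the same scale SLC25A23 differed by 0.21 (adjusted p = 0.294) and SLC25A25 by 0.05 (adjusted p = 0.721). Of the pyrimidine nucleotide carriers, SLC25A36 had 77.0 and 66.3 CPM with PELP1 siRNA, against 70.6 and 76.1 CPM with control siRNA, with overlapping groups. SLC25A33, a carrier induced by insulin signalling, was at 6.14 and 6.38 CPM with PELP1 siRNA, against 4.69 and 5.58 CPM with control siRNA (log2 fold change 0.28, adjusted p = 0.211).

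The phosphate carrier SLC25A3 had 316 and 349 CPM with PELP1 siRNA, against 322 and 324 CPM with control siRNA. The PELP1 siRNA values lay on either side of the control values, and the log2 fold change was 0.04 (SE 0.065, adjusted p = 0.660). Of the uncoupler relatives SLC25A14, SLC25A27 and SLC25A30, 0 of 3 were called by edgeR, DESeq2 or limma-voom, and 0 at an unadjusted p under 0.05. SLC25A30 had 60.1 and 55.7 CPM with PELP1 siRNA, against 52.5 and 52.4 CPM with control siRNA, without overlap (log2 fold change 0.14, adjusted p = 0.205). SLC25A27 had 23 and 17 counts with PELP1 siRNA, against 25 and 18 counts with control siRNA.

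Of the mitoferrins, which import iron for iron-sulfur clusters and heme, SLC25A37 was lower and SLC25A28 was not called. SLC25A37, the form needed in developing red cells, had 36.4 and 35.0 CPM with PELP1 siRNA, against 47.3 and 45.2 CPM with control siRNA. The groups were well apart, with a log2 fold change of -0.37 (SE 0.088, adjusted p = 0.00257). SLC25A28 had 21.6 and 24.8 CPM with PELP1 siRNA, against 24.7 and 22.5 CPM with control siRNA (log2 fold change -0.03, adjusted p = 0.879). SLC25A37 made up 62.8% and 58.6% of the pair's summed CPM with PELP1 siRNA, against 65.7% and 66.7% with control siRNA, without overlap.

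Among 5 tested carriers of other or unassigned cargo, 2 were lower and 0 higher (15.0% and 12.9% of all genes). Again 0 were higher at an unadjusted p under 0.05, by DESeq2 or by limma-voom. SLC25A46 (chr5:110073837-110100861) sits in the outer membrane, where it takes part in mitochondrial fusion and fission and in lipid transfer. It had 93.1 and 79.2 CPM with PELP1 siRNA, against 100.1 and 108 CPM with control siRNA (log2 fold change -0.27, SE 0.081, adjusted p = 0.0129). The groups did not overlap, and PELP1 siRNA library 2 was the lowest. SLC25A43 (chrX:118533299-118588441), whose cargo is not established, had 34.8 and 36.4 CPM with PELP1 siRNA, against 40.5 and 44.4 CPM with control siRNA (log2 fold change -0.26, SE 0.090, adjusted p = 0.0365). It was no longer called under total count scaling (adjusted p = 0.0857) or with DESeq2's Wald test (0.0943). SLC25A45 had the lowest fitted fold change of the family, -0.49, from 35 and 30 counts with PELP1 siRNA, against 46 and 53 counts with control siRNA, and was not called (adjusted p = 0.140).

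**Figure D3:**
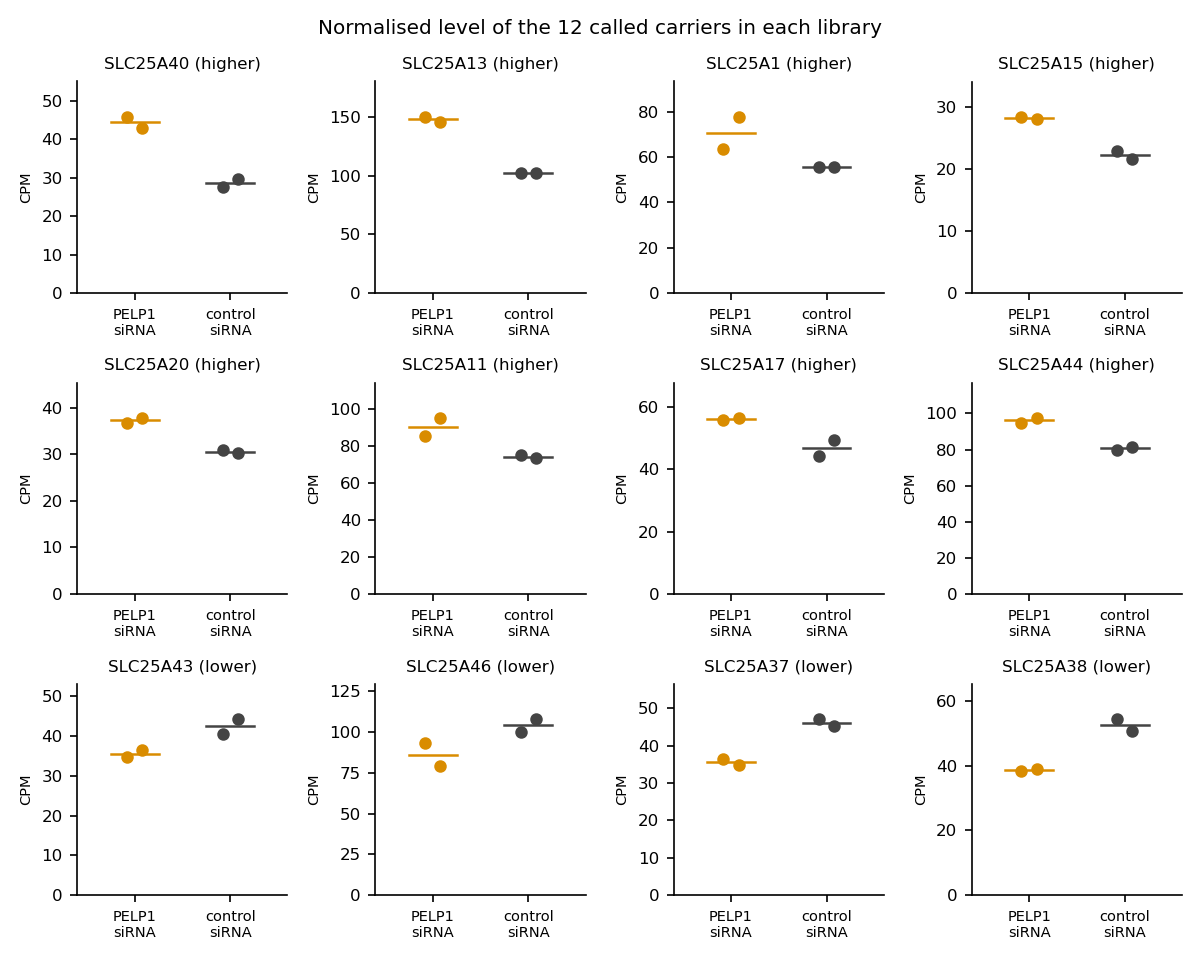
TMM-scaled CPM of each of the 12 called carriers, with 1 point per library and a line at the mean of the 2 libraries, PELP1 siRNA left and control siRNA right; each axis starts at 0. For every carrier shown the 2 groups of points do not overlap. These carriers were picked by their call, and groups did not overlap for 64.2% of all genes tested. The gap is widest in proportion for SLC25A40 (45.8 and 43.0 CPM with PELP1 siRNA, against 27.6 and 29.7 CPM with control siRNA).

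The 8 carriers that were not tested had few or no counts. SLC25A6, SLC25A31 and SLC25A48 had 0 in all 4 libraries. SLC25A2, SLC25A21, SLC25A41 and SLC25A47 had at most 5 counts in any library, and SLC25A34 had 2 and 3 counts with PELP1 siRNA, against 9 and 6 counts with control siRNA. No difference was tested in these 8 carriers. Relatives of the family under other names were looked at as well: of 9 such symbols 5 were tested (UCP2, MTCH1, MTCH2, MCART1, MCART6) and 0 were called by edgeR, DESeq2 or limma-voom, with 1 higher at an unadjusted p under 0.05.

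The lower carriers were also compared for the letters of their 3′ untranslated regions. Earlier work on these same fold changes had picked the 7-base words CTCAGTT and GCCTTGA because they were frequent in genes that fell, so the shares below are a description with no test. In the reference transcripts (GENCODE release 44 on GRCh37, transcript strand only) 13 of the 37 tested carriers held at least 1 of these words (35.1%), against 25.2% of all tested genes with such a region. They were found in 3 of the 4 lower carriers (SLC25A37, SLC25A38 and SLC25A43, and not SLC25A46), in 1 of the 8 higher carriers (SLC25A44) and in 9 of the 25 not called. Over all genes the share was 42.5% of those lower, 18.3% of those higher and 22.8% of those not called. A longer region has more room for a word of 7 bases. The regions were 834 to 3611 bases long in the 4 lower carriers and 552 to 2796 bases in the 8 higher ones. The part of length in these shares was not tested.

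Sites are printed for carriers of each kind: CTCAGTT in the lower SLC25A38 and SLC25A43 and the uncalled SLC25A24, and GCCTTGA in the higher SLC25A44. Each is 23 bases, 5′ to 3′ on the strand of the transcript, with the word in capitals (GRCh37): SLC25A38 at chr3:39438520-39438542 (plus strand), SLC25A43 at chrX:118587455-118587477 (plus), SLC25A44 at chr1:156181697-156181719 (plus) and SLC25A24 at chr1:108677384-108677406 (minus).
SLC25A38: aattggttCTCAGTTaacttctc
SLC25A43: tagtttcaCTCAGTTtgacctga
SLC25A44: tacctgaaGCCTTGAtatttctt
SLC25A24: tcttaagtCTCAGTTtcctaatt
Beyond the word itself the flanking bases differ.

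Enzymes that work next to the carriers were followed in lists set up for each cargo. In the malate-aspartate and glycerol phosphate shuttles, 3 of 6 tested genes were higher and 1 was lower, beside the higher SLC25A13 and SLC25A11. For these counts and those of the lists that follow, the shares over all genes are 12.9% higher and 15.0% lower. With 4 to 15 genes a list, they are given as descriptions with no test. All these lists were chosen with earlier results of these data known, so they are not neutral sets. MDH1, the cytosolic malate dehydrogenase, had 377 and 384 CPM with PELP1 siRNA, against 297 and 316 CPM with control siRNA (log2 fold change 0.31, adjusted p = 0.000592). GOT2, the mitochondrial aspartate aminotransferase, had 224 and 222 CPM with PELP1 siRNA, against 176 and 182 CPM with control siRNA (0.32, adjusted p = 0.000597). GPD2, the mitochondrial enzyme of the glycerol phosphate shuttle, was lower (-0.26, adjusted p = 0.0117). Of the malate-aspartate shuttle, MDH2 and SLC25A12 did not pass the test.

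On the citrate side, 5 of 8 tested genes were higher and 0 lower, beside the higher SLC25A1, with 0 lower also at an unadjusted p under 0.05, by DESeq2 and by limma-voom. FASN, the fatty acid synthase, had 303 and 339 CPM with PELP1 siRNA, against 208 and 198 CPM with control siRNA (0.66, adjusted p = 1.03e-07). ACACA, the acetyl-CoA carboxylase, had 158 and 141 CPM with PELP1 siRNA, against 109 and 105 CPM with control siRNA (0.49, adjusted p = 2.14e-05). ACLY, which splits the exported citrate, was not called (-0.03, adjusted p = 0.775). The median of the 8 was 0.24 on the log2 scale, against 0.001 over all genes.

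Around SLC25A20, 1 of 4 tested genes of the carnitine shuttle was higher and 2 were lower. CPT2, the enzyme of the matrix side, had 26.9 and 26.7 CPM with PELP1 siRNA, against 21.3 and 20.5 CPM with control siRNA (0.36, adjusted p = 0.00717). CRAT (-0.23, adjusted p = 0.0250) and CPT1A, the enzyme of the outer membrane (-0.18, adjusted p = 0.0460), were lower. DESeq2 called 0 of these genes lower: the CRAT call was lost with its Wald test (adjusted p = 0.0544) and under total count scaling (0.0749), and the CPT1A call was lost in 5 of the settings that kept all 4 libraries, among them the replicate block (adjusted p = 0.0774).

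The folate carrier SLC25A32 was not called, and most of the enzymes it supplies fell. SLC25A32 had 65.1 and 62.5 CPM with PELP1 siRNA, against 66.3 and 65.9 CPM with control siRNA (log2 fold change -0.05, adjusted p = 0.667). Of 6 tested mitochondrial folate enzymes, 5 were lower and 0 higher (15.0% and 12.9% of all genes), with 0 higher also at an unadjusted p under 0.05, by DESeq2 and by limma-voom, and their median was -0.45. ALDH1L2 had 8.17 and 7.69 CPM with PELP1 siRNA, against 17.0 and 16.6 CPM with control siRNA (-1.08, adjusted p = 4.54e-07). MTHFD2 had 63.3 and 65.0 CPM with PELP1 siRNA, against 117 and 127 CPM with control siRNA (-0.93, adjusted p = 2.26e-09). Both enzymes hold a CTCAGTT or GCCTTGA word in the 3′ untranslated region, and the lower SHMT2, MTHFD2L and FPGS hold neither. The regions of ALDH1L2 and MTHFD2 are 4637 and 3326 bases long. Those of SHMT2, MTHFD2L and FPGS are 577, 1293 and 480 bases long, and the part of length was not tested. DBF4, called higher, holds 2 GCCTTGA in 1393 bases.

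In iron-sulfur and heme synthesis, 6 of 14 tested genes were higher and 2 lower (12.9% and 15.0% of all genes), beside the lower SLC25A37 and SLC25A38, and DESeq2 called 5 higher and 1 lower. ISCA1, a late-acting assembly protein of iron-sulfur clusters, had 52.2 and 49.5 CPM with PELP1 siRNA, against 34.7 and 31.1 CPM with control siRNA (0.63, adjusted p = 1.23e-05). Its partner ISCA2 was higher as well (0.51, adjusted p = 0.00114). FDXR, the ferredoxin reductase, was lower (-0.39, adjusted p = 0.00639). ALAS1, which uses the glycine that SLC25A38 brings in, was not called (0.01, adjusted p = 0.936).

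**Figure D4:**
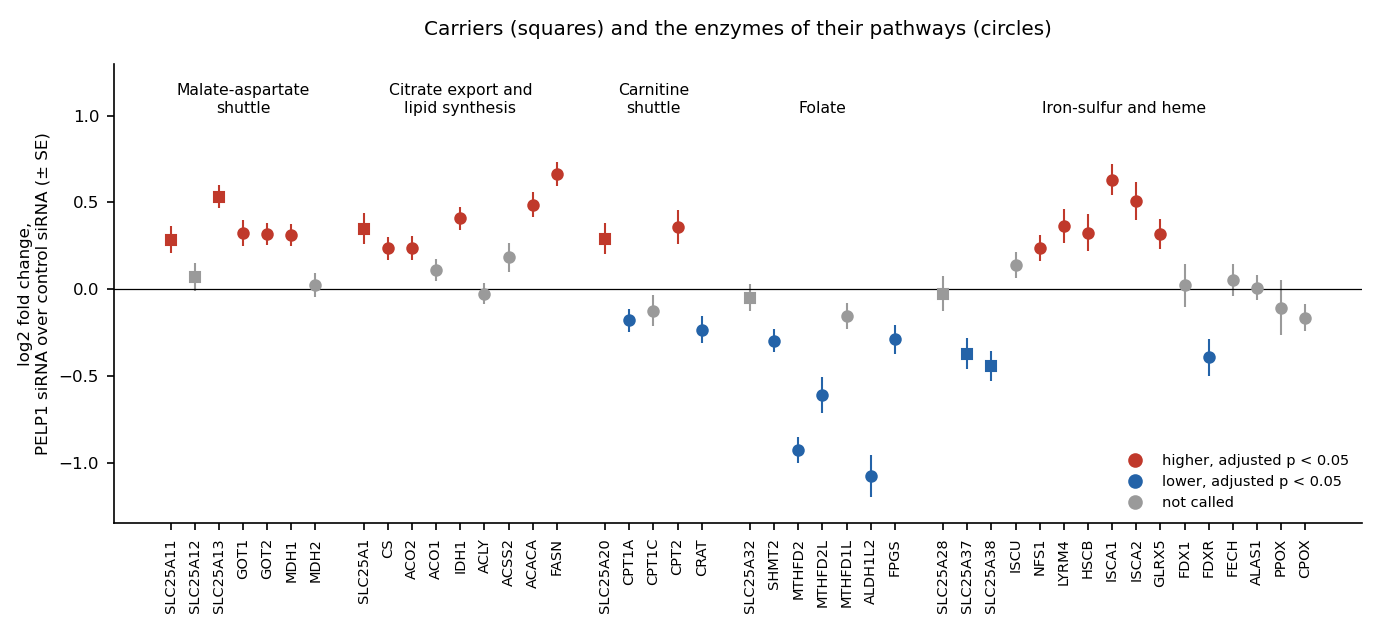
Log2 fold change (PELP1 siRNA over control siRNA, with bars of 1 SE) of carriers (squares) and of enzymes of their pathways (circles), grouped along the axis by pathway. Red is called higher, blue called lower and grey not called; the malate-aspartate and citrate groups hold red and grey points only, and the folate group holds blue and grey points only.

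Beside the ornithine and glutamate carriers, 1 of 9 tested enzymes of proline, ornithine and glutamate metabolism was higher and 3 were lower. ARG2, the mitochondrial arginase that makes ornithine, had 59.0 and 56.8 CPM with PELP1 siRNA, against 44.5 and 43.2 CPM with control siRNA (0.40, adjusted p = 0.000766), alongside the higher SLC25A15. ASNS, the asparagine synthetase, had 40.8 and 41.1 CPM with PELP1 siRNA, against 70.3 and 75.9 CPM with control siRNA (-0.84, adjusted p = 5.95e-08), and PYCR1, which makes proline, was lower too (-0.31, adjusted p = 0.0149). For ATP supply, beside the uncalled ADP/ATP carriers, 2 of 8 tested genes were higher (ATP5A1 at 0.40, adjusted p = 2.14e-05, and ATP5C1 at 0.23, adjusted p = 0.00846) and 0 lower, with 0 lower also at an unadjusted p under 0.05, by DESeq2 and by limma-voom.

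In the machinery that brings carriers to the inner membrane, 3 of 12 tested genes were higher and 1 was lower. TOMM20, a receptor of the outer membrane pore, had 95.5 and 95.4 CPM with PELP1 siRNA, against 182 and 191 CPM with control siRNA (-0.96, adjusted p = 2.68e-10). Its 3′ untranslated region, of 2726 bases, holds 2 CTCAGTT and 1 GCCTTGA, the words picked earlier because they were frequent in genes that fell. At least 1 of these words is in 42.5% of all lower genes. Of other lower genes named from the lists, CPT1A holds a word, and GPD2, CRAT, FDXR, ASNS, PYCR1 and PPRC1 hold neither. TOMM70A, the receptor that carriers use most, was not called (0.04, adjusted p = 0.698). TIMM22, the pore that inserts carriers, had 56.9 and 65.9 CPM with PELP1 siRNA, against 52.6 and 47.8 CPM with control siRNA (0.29, adjusted p = 0.0163). TIMM8B, a small chaperone of the space between the membranes, had 12.5 and 14.4 CPM with PELP1 siRNA, against 9.80 and 10.4 CPM with control siRNA (0.41, adjusted p = 0.0156). With DESeq2's Wald test its adjusted p was 0.0932, and DESeq2 called 1 of the 12 genes higher and 1 lower.

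Of 15 tested transporters of the inner membrane outside the SLC25 family, 2 were higher and 0 lower by edgeR, DESeq2 and limma-voom. At an unadjusted p under 0.05, 6 were higher and 1 was lower. SFXN1, a serine carrier, was higher (0.27, adjusted p = 0.00354), as was its relative SFXN5 (0.40, adjusted p = 0.00159). Of 4 outer membrane channels, VDAC3 was higher (0.22, adjusted p = 0.0237) and 0 were lower, also at an unadjusted p under 0.05, by DESeq2 and by limma-voom. Among 10 regulators of mitochondrial gene expression, PPARGC1A, a coactivator of mitochondrial biogenesis, was higher at 20.8 and 19.1 CPM with PELP1 siRNA, against 13.8 and 11.6 CPM with control siRNA (0.66, adjusted p = 0.000146). Its relative PPRC1 was lower (-0.28, adjusted p = 0.00399), and the other 8 were not called.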

How the data were processed

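RNA-seq libraries of U87 cells, 2 with PELP1 siRNA and 2 with control siRNA, were analysed from the deposited read counts per gene symbol, which the authors left without normalization. The labels' protocols describe TruSeq libraries with single reads of 50 bp. CASAVA 1.8.2, TopHat2 2.0.8b and HTSeq were used with hg19 (GRCh37), per the submitters' processing notes. The sources used here do not give the HTSeq version, strand setting or annotation release. HTSeq discards reads with several alignments or overlapping genes, so genes with close copies are under-counted.

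The 5 summary lines of each library (36.0 to 37.6% of all counts) were left out. Genes passing filterByExpr (minimum count 10, minimum total 15; 13234 of 23228) were fitted with edgeR 4.0.16 (R 4.3.3; TMM, robust quasi-likelihood, group only). The spread between libraries was a biological coefficient of variation of 5.23%. DESeq2 1.42.0 and limma-voom (3.58.1) were alternatives. On simulated data of this comparison over 13234 genes, 46% of planted 1.25-fold changes, 74% of 1.5-fold, 88% of 2-fold and 100% of 4-fold changes were called, and 7.78% of calls were false. The simulation planted 50 genes at each fold, gave both groups the same spread and led to 167 calls. The data gave 3692 calls and a wider PELP1 siRNA pair, so these rates need not hold for them. Levels per kb and exon sharing used GENCODE release 44 on GRCh37, which held all 45 carriers, with the reference transcript of each gene; promoters came from RefSeq.

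Carriers were named by cargo, with values in each library for those called and for the 8 of highest mean CPM. From each enzyme list (112 genes, all found) the 2 called genes of smallest adjusted p in each direction were named. Some genes these rules name are not reported here. ACLY, MDH2, ALAS1, TOMM70A, SHMT2, MTHFD2L, FPGS, SNAP25, EPCAM and the uncalled carriers given in full beyond that rule were chosen after their values were seen. The members and lists were chosen with earlier results of these data known.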

Additional observations from a re-analysis of the deposited data

How the results depend on the processing

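Each result was recomputed under 13 alternative settings. The PELP1 log2 fold change stayed past the threshold in all of them and ran from -2.32 to -2.10 with a library left out. Over all genes, leaving out a library gave 523 to 2724 higher and 943 to 2804 lower, in place of 1712 and 1980, and DESeq2's Wald test gave 1133 higher and 1427 lower. Among the carriers, leaving out a library gave 2 to 12 higher and 0 to 5 lower, in place of 8 and 4, and the other settings gave 6 to 11 higher and 3 to 5 lower. The low ends came without control siRNA library 1 (2 higher, 0 lower) and library 2 (2 higher, 1 lower), which leaves the spread to the more variable PELP1 siRNA pair. Total count scaling moved the median of all genes to 0.05 and that of the carriers to 0.09 on the log2 scale.

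The replicate numbers showed no shared pattern across genes: the deviations of same-numbered libraries from their group means correlated at -0.041. Whether same-numbered libraries were prepared together cannot be told from this value. With the number as a replicate block, 1613 genes were higher and 1968 lower, 8 carriers were higher and 5 lower (SLC25A24 the addition), and PELP1 stood at -2.21.

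Direction changed for carriers close to 0 that were not called, and the cause was not tested. Total count scaling gave log2 fold changes of 0.014 for SLC25A36, 0.040 for SLC25A42, 0.018 for SLC25A18, 0.028 for SLC25A22, 0.023 for SLC25A28 and 0.0052 for SLC25A35. Upper quartile scaling gave 0.0017 for SLC25A42 and limma-voom 0.0063 for SLC25A18. SLC25A27 turned to -0.0060 without the filter on low counts and to -0.013 with the block. With a library left out, values ran from -0.0095 to 0.23 for SLC25A26, -0.10 to 0.085 for SLC25A42, -0.13 to 0.093 for SLC25A22, -0.32 to 0.36 for SLC25A27, -0.12 to 0.075 for SLC25A28, -0.14 to 0.073 for SLC25A36, -0.026 to 0.12 for SLC25A3, -0.30 to 0.35 for SLC25A18 and -0.16 to 0.10 for SLC25A35. Of 827 single-gene comparisons in all, 719 kept direction and side of the threshold. Depth limits SLC25A18, SLC25A27 and SLC25A45, at 17 to 60 counts per library.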
